A study of Mus musculus with 16 samples.

Results

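A set of 9 macrophage genes for scavenger receptors and related uptake proteins were followed across 16 RNA sequencing libraries: Cd163, Mrc1, Marco, Msr1, Stab1, Scarb1, Scarb2, Folr2 and Cd5l. These 9 were matched by symbol among 54532 gene identifiers, and all 9 held at least 1 FPKM (fragments per kilobase, a measure scaled by exon length and library depth) in all 16 libraries, so none was lost to the filter on low values. The cells were bone marrow-derived macrophages of FVB/N mice, grown from marrow for 5 to 7 days in medium with 30% L929 cell supernatant and 20% fetal bovine serum. The 4 groups, with 4 libraries each, were wild type with vehicle (DMSO), wild type with dexamethasone (a synthetic glucocorticoid, 100 nM), and the same treatments in FOXO3-/- cells, which lack the forkhead transcription factor FOXO3, per the labels; every treatment ran for 24 h. The part of Foxo3 that was removed, and whether numbered libraries came from separate mice or cultures, are not stated in the labels, so each p-value rests on library-to-library spread that may be technical. The question in the series' title is what FOXO3 does to glucocorticoid receptor signalling.

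Scavenger receptors bind modified lipoproteins, cell debris, glycoproteins and microbes at the macrophage surface and carry them into endosomes and lysosomes. Glucocorticoids enter the cell and bind the glucocorticoid receptor, which moves to the nucleus and raises some genes and lowers others. CD163, a receptor for haemoglobin, is widely used as a marker of macrophages exposed to glucocorticoids, and the mannose receptor (Mrc1) and stabilin-1 (Stab1) mark alternatively activated or resident macrophages. MARCO and the class A receptor encoded by Msr1 bind bacteria and modified lipoproteins, and folate receptor beta (Folr2) and CD5L, a secreted protein built of scavenger receptor cysteine-rich domains, are products of tissue macrophages.

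Reads recovered from the FPKM values numbered 16886745 to 20584573 per library. The summed FPKM of 10 macrophage markers ran from 12984 to 13920 in wild type with vehicle and from 9695 to 12763 with dexamethasone. In knockout it ran from 13400.5 to 15712 with vehicle and from 12972 to 15518 with dexamethasone. Every treated wild-type library thus lay below every library of the other groups. Single markers moved as well. With dexamethasone 7 of the 10 fell and 1 rose in wild type (median log2 difference -0.53), and 6 fell and 2 rose in knockout (-0.53). Knockout was higher for 1 of the 10 with vehicle (0.23) and for 6 with dexamethasone (0.37). Markers of dendritic cells, lymphocytes, mast cells and red cells stayed under 1 FPKM throughout. The 7 neutrophil markers summed to at most 4.54 FPKM in a library, with Ly6g at 0, and the 6 endothelial markers to at most 13.8, with Emcn, Tek and Stab2 under 1 FPKM throughout. The 6 glucocorticoid-induced genes used to check the treatment (Fkbp5, Tsc22d3, Per1, Klf9, Zbtb16 and Dusp1) all rose in both genotypes. The Foxo3 transcript, read over the whole gene, did not separate the genotype labels: with vehicle it was 24.7 ± 1.72 FPKM (SD, n = 4) in wild type and 23.8 ± 0.635 in knockout (exact permutation test, two-sided, p = 0.371), and with dexamethasone 23.2 ± 1.07 and 24.5 ± 1.44 (exact p = 0.171), where 70 splits allow no p under 0.0286. Whether reads from a shortened transcript remain was not tested, so the genotype of these libraries rests on their labels. Stromal markers differed between libraries of a group and between genotypes: Col1a1, a fibroblast collagen gene, ran from 6.77 to 174 FPKM in wild type with vehicle, 19.1 to 355.5 in wild type with dexamethasone, 0.395 to 95.8 in knockout with vehicle and 1.18 to 25.5 in knockout with dexamethasone. In all, 7 libraries held at least 50 FPKM of Col1a1 and 9 held less; 3 libraries fell on the other side from the rest of their group, namely replicate 3 of wild type with vehicle, replicate 4 of wild type with dexamethasone and replicate 4 of knockout with vehicle. The summed level of all 10 stromal markers followed the same pattern, from 33.0 to 612 FPKM, 75.7 to 1249, 3.44 to 448 and 8.15 to 111 in those 4 groups. Results on genotype for the 9 genes are given below with all libraries and, in most comparisons, without these 3. Genotype results of other genes named below rest on all 16 libraries only, and the part of the stromal signal in them is not shown. Without the 3 libraries every wild-type library is rich and every knockout library poor in Col1a1, so genotype and stromal signal cannot be told apart. In such mixed RNA, fewer cells of a type and less RNA per cell cannot be told apart.

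At rest the genes covered a wide range of levels, which FPKM puts on a per-length scale. In wild type with vehicle the mean was highest for Stab1 (176 FPKM) and Mrc1 (149 FPKM), followed by Scarb2 (43.8), Cd5l (41.9), Msr1 (38.7), Folr2 (27.9), Scarb1 (13.3), Marco (10.6) and Cd163 (2.16). Scarb2, Cd5l and Msr1 were neighbours whose libraries overlapped, as did those of Scarb1 and Marco. In knockout with dexamethasone Stab1 (262 FPKM) and Mrc1 (253 FPKM) were again at the top, with overlapping libraries, and Cd163 (12.7) and Scarb1 (12.4) stood last.

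**Figure D1:**
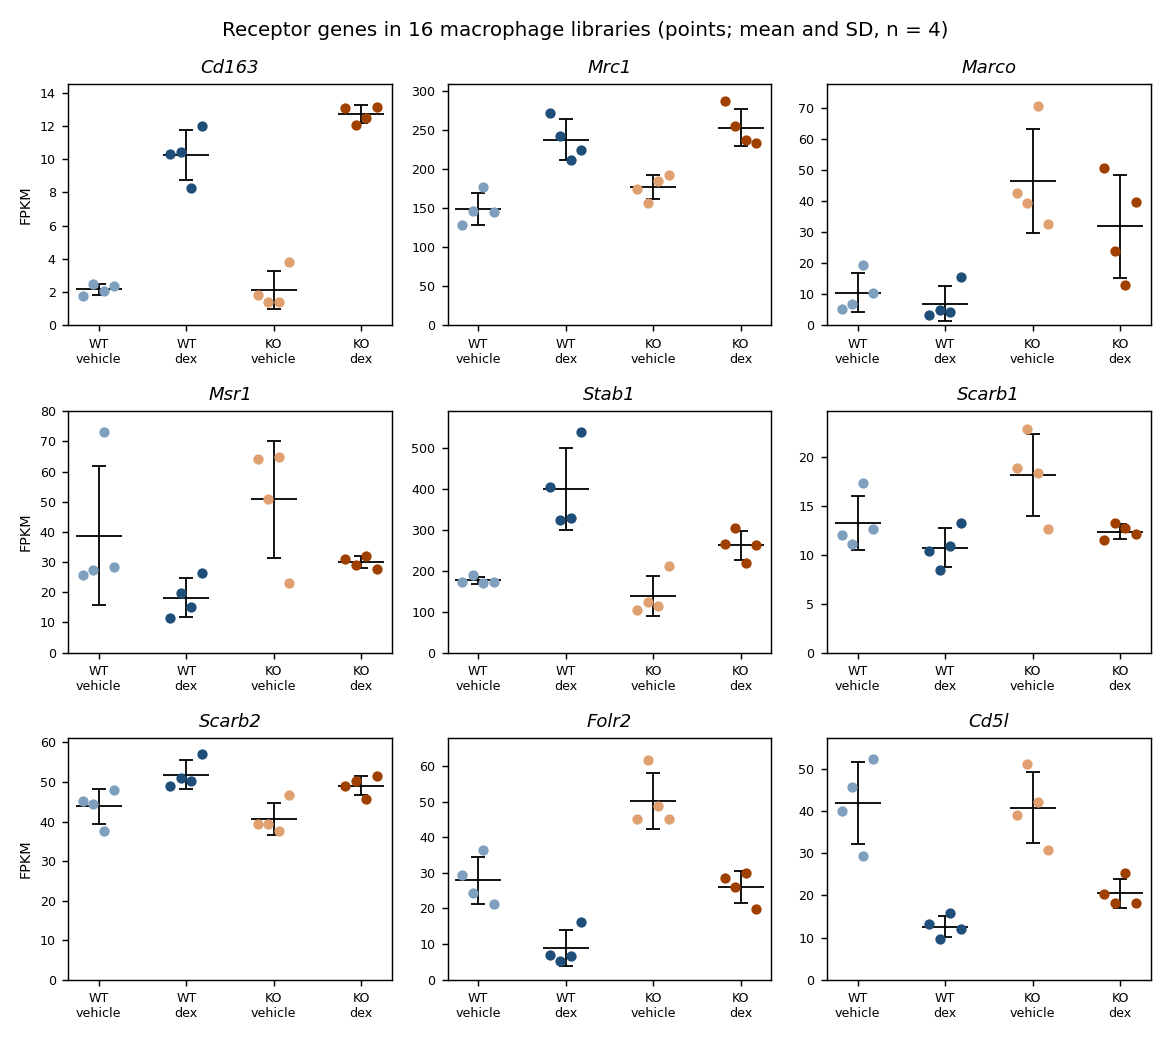
FPKM (linear axis from 0) of the 9 receptor genes in each of the 16 libraries, by group; points are libraries and black lines the mean with SD (n = 4). Cd163 lies between 1.39 and 3.80 FPKM in all vehicle libraries and between 8.27 and 13.2 in all dexamethasone libraries, whereas Marco overlaps between treatments and, with vehicle, lies higher in all knockout libraries.

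Dexamethasone raised 4 of the 9 genes in wild-type cells (Cd163, Mrc1, Stab1, Scarb2) and lowered 2 (Folr2, Cd5l), at an adjusted p under 0.05 in limma's moderated test with Benjamini-Hochberg adjustment over 11654 genes. Among all genes tested 11.9% rose and 18.2% fell in that comparison. In knockout cells the same 4 rose and 3 fell (Folr2, Cd5l, Scarb1), against 15% higher and 24.1% lower among all genes. The median log2 difference over the 9 genes was -0.28 in wild type and -0.49 in knockout, beside -0.02 and -0.05 over all genes, so these counts run in both directions and the list as a whole has no single sign. All log2 differences are on the scale of log2(FPKM + 1), which understates changes of low genes such as Cd163.

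Cd163, which takes up haemoglobin, showed the steepest rise of the 9. The gene lies on the plus strand at chr6:124304656-124330527 (GRCm38). Its wild-type libraries held 1.78, 2.47, 2.05 and 2.36 FPKM with vehicle and 10.3, 10.4, 8.27 and 11.98 with dexamethasone. Knockout libraries held 1.84, 1.39, 1.43 and 3.80 FPKM with vehicle and 13.1, 12.03, 12.5 and 13.2 with dexamethasone. No treated library overlapped an untreated one in either genotype, and the highest vehicle value came from knockout replicate 4, the vehicle library of that genotype rich in Col1a1. The mean rose 4.74-fold in wild type (log2 difference 1.83 ± 0.18 SE, adjusted p = 3.29e-06) and 5.998-fold in knockout (2.197 ± 0.18, adjusted p = 3.29e-07). Among tested genes 27.3% separated the treatments without overlap in wild type and 40.5% did so in knockout. Reads per library for Cd163 ran from 126 to 1427.

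Mrc1 encodes the mannose receptor CD206, which binds mannose-bearing glycoproteins and collagen fragments, at chr2:14229392-14332057 (plus strand). Its levels were 128, 146, 178 and 146 FPKM in wild type with vehicle and 272, 243, 211 and 225 with dexamethasone. In knockout they were 175, 156, 185 and 193 FPKM with vehicle and 287, 256, 237 and 234 with dexamethasone. The groups did not overlap, and the rise was modest: 1.59-fold in wild type (log2 difference 0.67 ± 0.11, adjusted p = 0.000316) and 1.43-fold in knockout (0.51 ± 0.11, adjusted p = 0.00174). With only the 9 libraries poor in Col1a1, which leave 1 wild-type library per treatment, the wild-type difference was 0.34 and did not pass (adjusted p = 0.202).

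Stab1 encodes stabilin-1, which clears the matrix protein SPARC and modified lipoproteins and sorts cargo between the Golgi and lysosomes; the gene lies at chr14:31139013-31168641 (minus strand). It held 172, 188, 170 and 173 FPKM in wild type with vehicle and 405, 323, 329 and 540 with dexamethasone. In knockout it held 105, 123, 113 and 211 FPKM with vehicle and 265, 303, 218 and 262 with dexamethasone. Treated libraries lay above untreated ones in both genotypes, although the knockout vehicle library rich in Col1a1 (211 FPKM) came within reach of the lowest treated value. The mean rose 2.27-fold in wild type (log2 difference 1.15 ± 0.20, adjusted p = 0.000587) and 1.90-fold in knockout (0.97 ± 0.20, adjusted p = 0.00151). Stab1 shares 112 exon bases with Nt5dc2 on the opposite strand, and since the strand setting of the counting is not given, reads there cannot be assigned to one gene.

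Scarb2 encodes LIMP-2, the lysosomal membrane protein that sorts a hydrolase to lysosomes, at chr5:92441314-92506833 (minus strand), and it moved least among the genes that passed. Wild-type libraries held 37.6 to 48.1 FPKM with vehicle and 49.0 to 57.2 with dexamethasone, without overlap. Knockout libraries held 37.5 to 46.7 and 45.7 to 51.4 FPKM, which overlapped. The rise was 1.18-fold in wild type (log2 difference 0.24 ± 0.084, adjusted p = 0.0420) and 1.21-fold in knockout (0.27 ± 0.084, adjusted p = 0.0202). Both calls lie near the threshold: the wild-type call was lost when any of 10 libraries was left out (adjusted p up to 0.127, without replicate 3 of wild type with vehicle) and the knockout call when any of 5 was (up to 0.0599, without replicate 3 of knockout with vehicle). The wild-type call was also lost with no filter on low values (adjusted p = 0.0747), with only the groups compared in the fit (0.0968), and without the 3 libraries apart in Col1a1, where the difference was 0.12 (adjusted p = 0.116), as it was in the libraries rich in Col1a1 (0.12, adjusted p = 0.194).

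Folr2 and Cd5l fell without overlap between treatments in both genotypes. Folr2, which encodes the folate receptor of macrophages at chr7:101839988-101857194 (minus strand), held 29.3, 24.4, 36.4 and 21.3 FPKM in wild type with vehicle and 7.00, 5.30, 6.74 and 16.3 with dexamethasone. In knockout it held 45.2, 61.7, 48.7 and 45.0 FPKM with vehicle and 28.5, 25.9, 29.9 and 19.9 with dexamethasone. The mean was 3.15-fold lower with dexamethasone in wild type (log2 difference -1.64 ± 0.26, adjusted p = 0.000249) and 1.93-fold lower in knockout (-0.92 ± 0.26, adjusted p = 0.0105). The treated wild-type library poor in Col1a1 (replicate 4) was the one at 16.3 FPKM, above the other 3. The fall of Folr2 and Cd5l ran the same way as that of most macrophage markers given above, and the part of that shift in it was not tested. Gm10602, an antisense gene that overlaps 975 of the 1546 exon bases of Folr2, reached at most 1.46 FPKM. Since the strand setting of the counting is not given, reads there cannot be assigned to Folr2 or Gm10602, and both levels carry that limit.

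Cd5l encodes a secreted protein of the scavenger receptor cysteine-rich family that circulates with IgM and acts in lipid handling and macrophage survival; it lies at chr3:87357881-87371073 (plus strand). Its values were 40.0, 45.7, 29.4 and 52.5 FPKM in wild type with vehicle and 13.1, 9.57, 15.8 and 12.1 with dexamethasone. Knockout libraries held 39.1, 51.1, 42.3 and 30.8 FPKM with vehicle and 20.2, 18.3, 25.4 and 18.2 with dexamethasone. The vehicle means of wild type and knockout were close (41.9 and 40.8 FPKM). The treated groups were apart, with every treated knockout library above every treated wild-type library. The mean was 3.32-fold lower with dexamethasone in wild type (log2 difference -1.64 ± 0.19, adjusted p = 1.75e-05) and 1.99-fold lower in knockout (-0.95 ± 0.19, adjusted p = 0.00112).

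Scarb1 encodes SR-BI, the receptor that exchanges cholesterol with high-density lipoprotein, at chr5:125277087-125341094 (minus strand). It held 12.004, 11.1, 17.4 and 12.6 FPKM in wild type with vehicle and 10.4, 8.42, 10.9 and 13.3 with dexamethasone. In knockout it held 18.9, 22.9, 18.4 and 12.7 FPKM with vehicle and 11.5, 13.2, 12.7 and 12.1 with dexamethasone. The treatments overlapped in both genotypes: the wild-type difference did not pass (log2 difference -0.28 ± 0.16, 95% interval -0.63 to 0.07, adjusted p = 0.230), and the knockout difference did (-0.49 ± 0.16, adjusted p = 0.0274). That call was lost when any of 5 libraries was left out, all from the knockout groups, with an adjusted p of up to 0.0957 without replicate 2 of knockout with vehicle. The Scarb1 call was also lost with no filter on low values (adjusted p = 0.0634).

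The class A receptors Msr1 (chr8:39581685-39642673, minus strand) and Marco (chr1:120474538-120505024, minus strand) did not pass in either genotype when all libraries were fitted. Msr1 held 25.9, 27.4, 73.2 and 28.4 FPKM in wild type with vehicle and 11.4, 19.9, 15.3 and 26.4 with dexamethasone; in knockout it held 64.2, 51.1, 64.7 and 23.2 with vehicle and 31.0, 29.0, 32.0 and 27.9 with dexamethasone. In each vehicle group 1 library stood far from the other 3. The log2 difference was -0.96 in wild type (95% interval -1.72 to -0.20, adjusted p = 0.0536) and -0.64 in knockout (-1.40 to 0.12, adjusted p = 0.171). Without replicate 4 of knockout with vehicle both differences passed, at -0.96 (adjusted p = 0.0221) and -0.97 (adjusted p = 0.0258); the wild-type one also passed without replicate 1 of wild type with vehicle (-1.10, adjusted p = 0.0495) or replicate 4 of wild type with dexamethasone (-1.15, adjusted p = 0.0300). Marco spread most within groups and overlapped between treatments, with a log2 difference of -0.59 in wild type (-1.61 to 0.43, adjusted p = 0.384) and -0.63 in knockout (-1.65 to 0.39, adjusted p = 0.324). Without the 3 libraries apart in Col1a1 Msr1 fell by 0.80 in wild type (adjusted p = 0.00128) and by 0.97 in knockout (adjusted p = 0.000111). In the libraries poor in Col1a1 Msr1 fell by 1.44 in wild type, between 1 vehicle and 1 treated library, which give no spread of their own. In knockout, with 3 vehicle and 4 treated libraries, it fell by 0.97 (adjusted p = 0.000114). In the rich ones, wild type only with 3 libraries per treatment, it fell by 0.80 (adjusted p = 0.0113). Limma voom on recovered reads called the wild-type fall as well (adjusted p = 0.0492). Marco passed in wild type in the rich libraries alone (-0.69, adjusted p = 0.0495). With all libraries the intervals leave room for a fall of more than 1 log2 unit in both genes as well as for none or little.

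**Figure D2:**
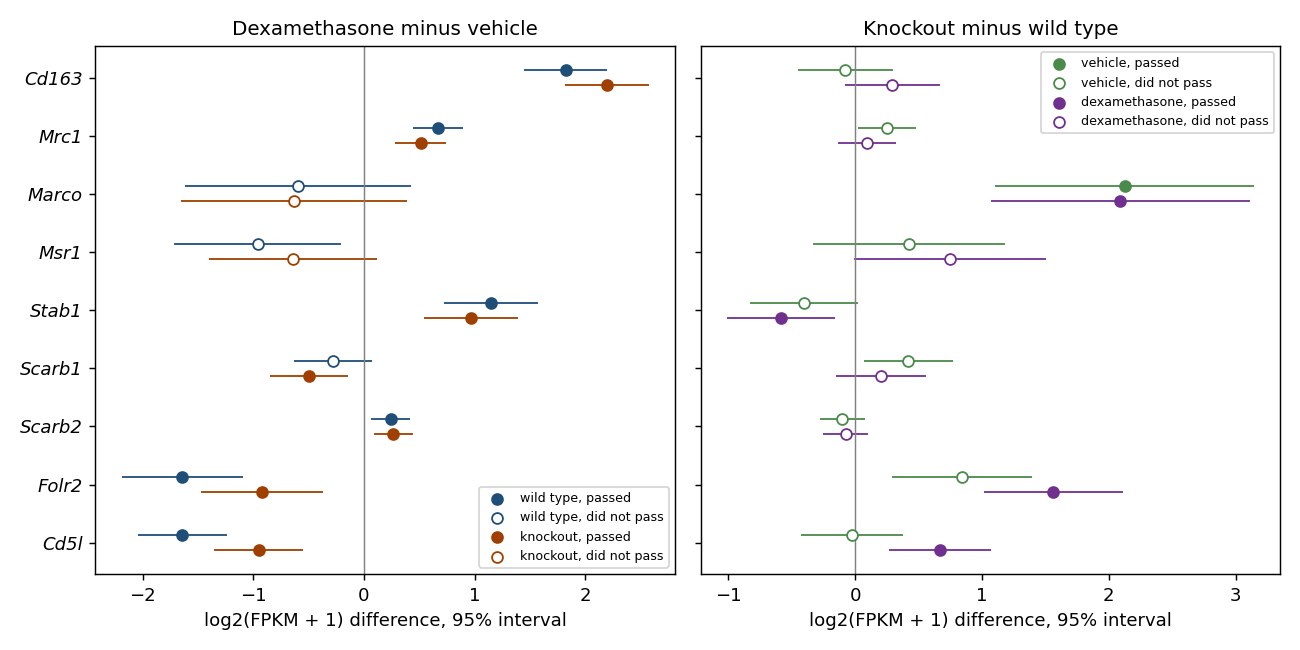
Differences of log2(FPKM + 1) with 95% intervals (limma) for the 9 genes: dexamethasone minus vehicle in each genotype (left) and knockout minus wild type in each treatment (right). Filled points passed an adjusted p of 0.05; Cd163 reaches 1.83 and 2.197 on the left, and Marco 2.12 and 2.09 on the right.

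Sequences just upstream of the start sites are shown for a pair of genes that rose (Cd163, Mrc1) and a pair that fell (Folr2, Cd5l) in both genotypes, because the glucocorticoid receptor can bind DNA at its target genes. RefSeq tables for GRCm38.p6 held windows for 7 of the 9 members, with none for Msr1 and Scarb1 and a pair of start sites for Folr2, which makes 8 windows of the 250 bases before a start. They were searched on both strands for the glucocorticoid receptor half-site AGAACA (reverse TGTTCT), for the same half-site as an inverted repeat with 3 bases between, for the forkhead element GTAAACA, for the antioxidant element TGACNNNGC and for the AP-1 element TGACTCA. Each line runs 5′ to 3′ on the gene's strand up to the base before the start site, with matches in capitals.
Cd163, chr6:124304401-124304650, plus strand: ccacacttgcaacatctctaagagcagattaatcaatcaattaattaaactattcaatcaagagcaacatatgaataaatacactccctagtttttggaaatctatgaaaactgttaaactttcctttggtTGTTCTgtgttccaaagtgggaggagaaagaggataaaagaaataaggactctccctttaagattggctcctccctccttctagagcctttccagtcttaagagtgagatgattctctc
Mrc1, chr2:14229164-14229413, plus strand: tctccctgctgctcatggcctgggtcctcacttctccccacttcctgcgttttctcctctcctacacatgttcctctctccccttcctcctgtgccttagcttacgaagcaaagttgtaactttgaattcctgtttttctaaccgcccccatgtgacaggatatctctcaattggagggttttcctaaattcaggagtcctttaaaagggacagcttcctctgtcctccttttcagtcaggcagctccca
Folr2, chr7:101845332-101845581, minus strand: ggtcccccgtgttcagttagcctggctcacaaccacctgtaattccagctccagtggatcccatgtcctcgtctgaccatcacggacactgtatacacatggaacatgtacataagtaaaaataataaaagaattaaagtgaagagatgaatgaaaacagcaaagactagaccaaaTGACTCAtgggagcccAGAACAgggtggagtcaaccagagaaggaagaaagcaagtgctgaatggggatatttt
Cd5l, chr3:87357631-87357880, plus strand: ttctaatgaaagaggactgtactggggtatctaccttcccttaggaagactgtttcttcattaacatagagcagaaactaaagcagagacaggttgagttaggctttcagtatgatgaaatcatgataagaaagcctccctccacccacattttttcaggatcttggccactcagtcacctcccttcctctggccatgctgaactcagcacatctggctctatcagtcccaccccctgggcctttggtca
A half-site stood 119 to 114 bases before the Cd163 start and another 58 to 53 bases before this Folr2 start, where an AP-1 element also lay at 74 to 68 bases. The half-site was in 2 of the 8 windows and in 16.1% of all 32851 promoter windows of that length, so a gene that rose and a gene that fell carried these letters. The window of the other Folr2 start, chr7:101857191-101857440, is not printed and held no half-site. The inverted repeat was in none of the 8 windows and in 3 of all windows (0.00913%), and the forkhead element was in none of the 8 and in 3.17% of all. The antioxidant element was in 2 of the 8 (Scarb2 and the other Folr2 start) and in 10.2% of all, and the AP-1 element in 1 of the 8 and 4.46% of all. These matches describe letters in short windows and no binding was measured.

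Genotype was compared within each treatment, and both genotype comparisons share their libraries with the treatment comparisons above. With vehicle 1 of the 9 genes was higher in knockout (Marco) and none was lower, against 3.37% higher and 1.3% lower among all genes tested; the median over the 9 genes was 0.25 and over all genes 0.04. With dexamethasone 3 were higher (Marco, Folr2, Cd5l) and 1 was lower (Stab1), against 14.3% and 12.4% of all genes, with medians of 0.29 and 0.03. Groups separated without overlap in 10.6% of all genes with vehicle and in 26.4% with dexamethasone.

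Marco, a class A receptor for bacteria and particles, showed the widest gap between genotypes. With vehicle its wild-type libraries held 5.30, 6.96, 19.4 and 10.6 FPKM and its knockout libraries 42.8, 39.5, 70.8 and 32.6. With dexamethasone they held 3.38, 4.92, 4.30 and 15.7 FPKM in wild type and 50.7, 24.1, 13.2 and 39.7 in knockout. All vehicle knockout libraries lay above all vehicle wild-type libraries, while 1 treated knockout library (13.2 FPKM) lay below the highest treated wild-type library. The mean was 4.40-fold higher in knockout with vehicle (log2 difference 2.12 ± 0.48, adjusted p = 0.0200) and 4.52-fold higher with dexamethasone (2.09 ± 0.48, adjusted p = 0.00769). The vehicle call was lost without replicate 1 or 2 of wild type with vehicle (1.88, adjusted p = 0.0771, and 1.99, adjusted p = 0.0706) or replicate 3 of knockout with vehicle (1.91, adjusted p = 0.0737).

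Marco also moved with the stromal signal. Among vehicle libraries poor in Col1a1 the wild-type one held 19.4 FPKM and the 3 knockout ones 39.5 to 70.8. Among those rich in Col1a1 the 3 wild-type ones held 5.30 to 10.6 FPKM and the knockout one 32.6, so knockout stood higher on both sides. With the stromal marker score as a covariate the difference was 1.35 (adjusted p = 0.0909) with vehicle and 1.11 (adjusted p = 0.134) with dexamethasone, and in the 9 libraries poor in Col1a1 it was 1.30 (adjusted p = 0.446) and 0.82 (adjusted p = 0.525). In the vehicle libraries rich in Col1a1 it was 2.01 (adjusted p = 0.0240), with 1 knockout library. Without the 3 libraries it was 2.59 (adjusted p = 0.000305) and 2.51 (adjusted p = 0.000159). Of the 10 macrophage markers 1 was higher in knockout with vehicle (median log2 difference 0.23) and 6 with dexamethasone (median 0.37). Adgre1, up by 1.07 with vehicle and 1.42 with dexamethasone, lay above these medians. The part of these markers in the Marco difference was not tested.

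Folr2 was higher in knockout in every library of both treatments. With dexamethasone the mean was 2.95-fold higher (log2 difference 1.56 ± 0.26, adjusted p = 0.00106). With vehicle it was 1.80-fold higher without overlap, at a log2 difference of 0.84 ± 0.26 (95% interval 0.29 to 1.39) that missed the threshold (adjusted p = 0.0751). That difference passed without replicate 3 of wild type with vehicle (0.98, adjusted p = 0.0320) and without replicate 4 of wild type with dexamethasone (adjusted p = 0.00748). Among vehicle libraries poor in Col1a1 wild type held 36.4 FPKM and knockout 45.2 to 61.7, and among the rich ones wild type held 21.3 to 29.3 and knockout 45.0. With dexamethasone the 1 wild-type library poor in Col1a1 (16.3 FPKM) was closest to the knockout libraries (19.9 to 29.9), and in the poor libraries alone the difference was 0.63 and did not pass (adjusted p = 0.175). Without the 3 libraries it was 1.02 with vehicle (adjusted p = 0.000403) and 1.87 with dexamethasone (adjusted p = 1.42e-06).

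Cd5l did not differ with vehicle beyond the spread (log2 difference -0.03, 95% interval -0.43 to 0.37, adjusted p = 0.945). The order of the genotypes turned with Col1a1, however. Among vehicle libraries poor in Col1a1 the 1 wild-type library held 29.4 FPKM and knockout 39.1 to 51.1. Among the rich ones wild type held 40.0 to 52.5 FPKM and the 1 knockout library 30.8. Over the alternatives run the vehicle difference ranged from -0.56 to 0.56. With dexamethasone it was 1.62-fold higher in knockout (0.66 ± 0.19, adjusted p = 0.0210). The call was lost without replicate 2 of wild type with dexamethasone (0.55, adjusted p = 0.0569) or replicate 3 of knockout with dexamethasone (0.56, adjusted p = 0.0609), and with the stromal covariate, where the difference was as large (0.71, adjusted p = 0.0803). It was also lost in the libraries poor in Col1a1 (0.71, adjusted p = 0.0967). Without the 3 libraries the difference was 0.65 with dexamethasone (adjusted p = 0.00582) and -0.06 with vehicle (adjusted p = 0.826). The treated wild-type library poor in Col1a1 held 12.1 FPKM, within the 9.57 to 15.8 of the 3 rich ones, and the treated knockout libraries held 18.2 to 25.4.

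Stab1 was the one member lower in knockout with dexamethasone, at 1.53-fold (log2 difference -0.59 ± 0.20, adjusted p = 0.0428), without overlap between 218 to 303 FPKM in knockout and 323 to 540 in wild type. The call was lost in 11 of 16 fits that left out a library (adjusted p up to 0.110, without replicate 3 of knockout with dexamethasone) and with the stromal covariate (-0.52, adjusted p = 0.233), no filter on low values (adjusted p = 0.0875) or limma voom (adjusted p = 0.0533). In the libraries poor in Col1a1 the difference was larger and passed (-1.05, adjusted p = 0.0179), with 1 wild-type library, and without the 3 libraries it was -0.43 (adjusted p = 0.00656). With vehicle the difference was -0.41 (95% interval -0.83 to 0.02, adjusted p = 0.248). Without replicate 4 of knockout with vehicle, the library at 211 FPKM, it was -0.63 and passed (adjusted p = 0.0228), and without all 3 libraries it was -0.64 (adjusted p = 0.000958). Among vehicle libraries poor in Col1a1 wild type held 170 FPKM and knockout 105 to 123, while the rich ones held 172 to 188 and 211, so the order of the genotypes turned between the sides.

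Msr1 and Scarb1 were split by Col1a1 in vehicle libraries of both genotypes. Msr1 held 73.2 FPKM in the wild-type library poor in Col1a1 and 51.1 to 64.7 in the 3 poor knockout libraries, against 25.9 to 28.4 in the 3 rich wild-type libraries and 23.2 in the rich knockout one. Scarb1 held 17.4 and 18.4 to 22.9 FPKM in the poor libraries and 11.1 to 12.6 and 12.7 in the rich ones. Neither differed between genotypes at the threshold with vehicle: the log2 difference was 0.42 for Msr1 (95% interval -0.33 to 1.18, adjusted p = 0.501) and 0.42 for Scarb1 (0.07 to 0.77, adjusted p = 0.168). Scarb1 passed without replicate 3 of wild type with vehicle (0.55, adjusted p = 0.0392) and without replicate 4 of knockout with vehicle (0.57, adjusted p = 0.0282). When the 3 libraries on the other side from their group were left out, Msr1 with vehicle was 1.11 higher and Scarb1 0.70 higher in knockout (adjusted p = 0.000113 and 0.000180). Within the poor and the rich vehicle libraries the Msr1 difference was -0.29 (adjusted p = 0.434) and -0.22 (adjusted p = 0.813), and that of Scarb1 0.19 (adjusted p = 0.589) and 0.09 (adjusted p = 0.890). With dexamethasone Msr1 was 1.64-fold higher in knockout without overlap but missed the threshold (0.75, 95% interval -0.01 to 1.51, adjusted p = 0.129); it passed with only the groups compared in the fit (adjusted p = 0.0366) and without the 3 libraries (0.94, adjusted p = 0.000165), and was 0.17 in the poor libraries (adjusted p = 0.541). Scarb1 with dexamethasone was 0.20 higher (-0.15 to 0.55, adjusted p = 0.380), 0.30 without the 3 libraries (adjusted p = 0.0211) and -0.10 in the poor libraries (adjusted p = 0.724). With the stromal covariate the fall of Msr1 under dexamethasone passed in both genotypes, at -0.78 (adjusted p = 0.00490) and -0.64 (adjusted p = 0.0113), with an SE of 0.19 rather than 0.355.

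**Figure D3:**
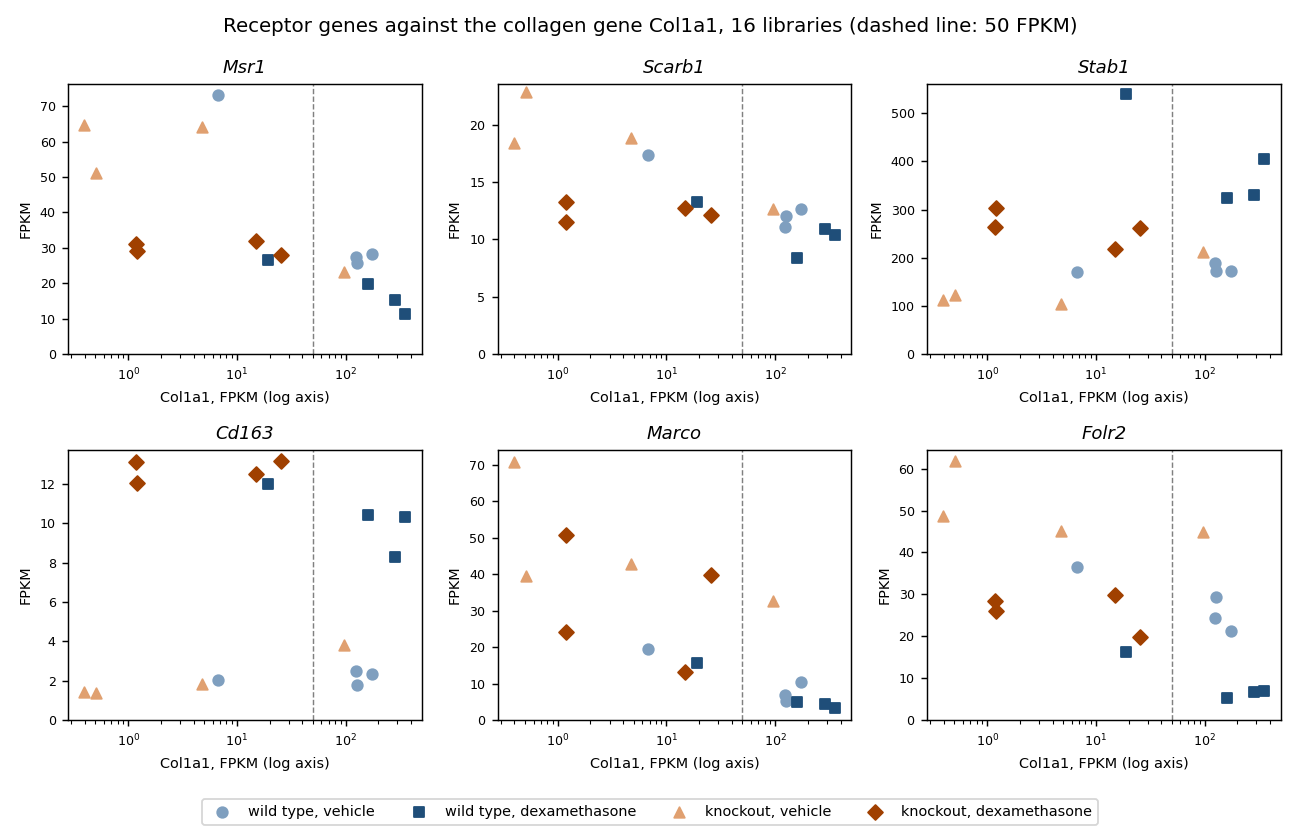
FPKM of 6 receptor genes (linear axis from 0) against FPKM of the collagen gene Col1a1 (log axis) in the 16 libraries; each point is a library, shapes and colours are the groups, and the dashed line is 50 FPKM. The 4 vehicle libraries left of the line hold 51.1 to 73.2 FPKM of Msr1 and the 4 to its right 23.2 to 28.4, whichever the genotype.

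Cd163, Mrc1 and Scarb2 did not pass between genotypes in either treatment when all libraries were fitted. With vehicle the 95% interval of the log2 difference was -0.45 to 0.30 for Cd163, 0.02 to 0.48 for Mrc1 and -0.28 to 0.08 for Scarb2. With dexamethasone it was -0.08 to 0.67 for Cd163, -0.14 to 0.32 for Mrc1 and -0.26 to 0.10 for Scarb2. Treated knockout libraries held 12.03 to 13.2 FPKM of Cd163 and treated wild-type libraries 8.27 to 11.98, which left a narrow gap and no overlap. Cd163 passed at that comparison without replicate 4 of knockout with vehicle (0.29, adjusted p = 0.0412), and Mrc1 passed with vehicle without replicate 3 of wild type with vehicle (0.34, adjusted p = 0.0457). Without the 3 libraries apart in Col1a1 all of these genes passed with vehicle, Cd163 at -0.32 (adjusted p = 0.0319), Mrc1 at 0.30 (adjusted p = 0.0484) and Scarb2 at -0.24 (adjusted p = 0.00558), and Cd163 passed with dexamethasone at 0.37 (adjusted p = 0.00962). None of these 4 differences passed in the libraries poor in Col1a1, where they were -0.26, -0.05, 0.04 and 0.08.

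The difference between the knockout and wild-type responses to dexamethasone passed for none of the 9 genes by limma, with 0.0601% of all genes called higher and 0.0686% lower; limma voom on the recovered reads also called 0 of the 9. An unadjusted p under 0.05 was reached by 1 of the 9 and by 1359 of all 11654 genes, so this count is no result about the members. That member was Cd5l, which fell less in knockout, by 0.69 ± 0.27 on the log2 scale (adjusted p = 0.321). Folr2 also fell less, by 0.72 ± 0.36 (95% interval -0.06 to 1.495, adjusted p = 0.462), and its difference passed without replicate 4 of wild type with dexamethasone (1.03, adjusted p = 0.0388). Over the alternatives run, the difference lay between 0.14 and 1.03 for Folr2 and between 0.15 and 0.85 for Cd5l. Among libraries poor in Col1a1, mean Folr2 was 36.4 (vehicle) and 16.3 FPKM (dexamethasone) in wild type, and 51.9 and 26.1 in knockout. Mean Cd5l was 29.4 and 12.1 there in wild type, and 44.2 and 20.5 in knockout. Each of these wild-type values is 1 library, so they give no spread. For Cd163 the response was 0.37 larger in knockout (-0.16 to 0.90, adjusted p = 0.584). The intervals of Marco (-1.48 to 1.41) and Msr1 (-0.75 to 1.40) exclude little.

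Related genes were read from lists chosen with earlier results of these data known, so their counts describe the samples. Among all genes tested 11.9% rose and 18.2% fell with dexamethasone in wild type, and 15% rose and 24.1% fell in knockout. List counts here and below stand beside these shares, and a count near them is no result about the list. Of 21 other scavenger receptors 12 were tested, and with dexamethasone none rose and 8 fell in each genotype, where the 9 members had 4 that rose. The beta-glucan receptor Clec7a fell by 2.64 on the log2 scale in wild type (SE 0.13, adjusted p = 6.49e-09) and by 1.57 in knockout (SE 0.13, adjusted p = 4.22e-07), and the difference between these responses passed (1.08 ± 0.18, adjusted p = 0.0394). The fatty acid and lipoprotein receptor Cd36 fell by 1.76 (SE 0.27, adjusted p = 0.000246) and by 0.95 (SE 0.27, adjusted p = 0.0131), from means of 234 to 67.8 FPKM in wild type and 266 to 137 in knockout. Cxcl16, a membrane chemokine that also binds oxidised lipoprotein, fell by 1.27 and by 1.13. Of 5 tested members of the mannose receptor family and macrophage lectins none passed with dexamethasone.

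Genes that work with CD163 moved in both directions. Of 9 tested genes of haemoglobin and haem handling, 2 rose and 4 fell in wild type and 2 rose and 6 fell in knockout. Hmox1, the haem-degrading enzyme haem oxygenase, rose from a mean of 302 to 821 FPKM in wild type (log2 difference 1.44 ± 0.13, adjusted p = 1.65e-06) and from 269 to 555 in knockout (1.06 ± 0.13, adjusted p = 1.88e-05), and with dexamethasone it was lower in knockout (-0.57 ± 0.13, adjusted p = 0.00752). Haptoglobin (Hp), which captures free haemoglobin, rose by 2.44 ± 0.78 in wild type (adjusted p = 0.0289) and by 3.49 ± 0.78 in knockout (adjusted p = 0.00272). Flvcr1, a haem exporter, and Blvra, a biliverdin reductase, fell in both genotypes. Adam17, the protease that sheds CD163 from the surface in human macrophages, fell by 0.66 in wild type (adjusted p = 0.00173) and by 0.65 in knockout (adjusted p = 0.00126), and was 1 of 6 tested shedding genes to fall in wild type and 1 of 2 in knockout, where Adam10 rose by 0.32.

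Partners of the lipid and lysosomal receptors moved in both directions. Of 10 tested high-density lipoprotein and lipoprotein genes 2 rose and 6 fell in wild type and 2 rose and 5 fell in knockout. Lipoprotein lipase (Lpl) fell by 1.84 (adjusted p = 0.000359) and by 1.71 (adjusted p = 0.000441), and lysosomal acid lipase (Lipa) by 1.28 and by 1.60. Apoe rose by 0.78 (adjusted p = 0.0136) in wild type and by 1.11 (adjusted p = 0.000934) in knockout. Among 10 lysosomal genes linked to LIMP-2, 1 rose and 3 fell in wild type, and 1 rose and 4 fell in knockout. Tfeb, a transcription factor of lysosomal genes, fell by 0.57 in wild type and by 0.61 in knockout.

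For Folr2, 7 genes of folate uptake and use were tested and 2 fell in each genotype: Mthfd2, a mitochondrial folate enzyme, by 0.92 and by 1.44, and the proton-coupled folate transporter Slc46a1 by 0.50 and by 0.41. Of 7 tested cargo and partners of stabilin-1, 1 rose and 2 fell in wild type and 1 rose and 3 fell in knockout. The mouse chitinase-like gene Chil3 rose from a mean of 0.158 to 1.79 FPKM in wild type (log2 difference 1.26 ± 0.17). In knockout Chil3 rose from 0.0592 to 4.38 FPKM (2.32 ± 0.17). Its vehicle libraries held at most 0.449 FPKM in wild type and 0.0951 in knockout. Chil3 thus passed the filter on low values only through treated libraries, so its rise is a description and no test. Lgals3 fell by 1.17 and by 1.20. Sparc, a stabilin-1 ligand that is itself among the stromal markers, was lower in knockout with dexamethasone (-4.11 ± 1.37, adjusted p = 0.0397).

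Of 18 tested genes of resident and alternatively activated macrophages, 9 rose and 4 fell in wild type and 9 rose and 6 fell in knockout, where 11.9% and 15% of all genes rose and 18.2% and 24.1% fell. The coagulation factor gene F13a1 rose by 3.83 in both genotypes (adjusted p = 3.35e-08 and 1.93e-08), the carbonyl reductase gene Cbr2 by 3.08 and 3.72, and Mertk, a receptor for apoptotic cells, by 1.57 and 2.02. Il10 fell by 1.07 and by 0.82 with dexamethasone and was higher in knockout with vehicle (1.01 ± 0.15, adjusted p = 0.00103) and with dexamethasone (1.25 ± 0.15, adjusted p = 9.61e-05). Cbr2 was also higher in knockout with vehicle (1.11 ± 0.22, adjusted p = 0.0106) and with dexamethasone (1.74 ± 0.22, adjusted p = 0.000188). Trem2, a lipid-sensing receptor, fell by 1.44 and by 1.20, as Folr2 and Cd5l did. Of 17 transcription factors linked to these receptors 5 rose and 6 fell in wild type and 4 rose and 6 fell in knockout: Klf4 rose by 1.96 and 2.60 and Maf by 0.67 and 0.45, whereas the liver X receptor gene Nr1h3 fell by 1.04 and by 0.85. The glucocorticoid receptor gene Nr3c1 did not pass in any of the 5 comparisons, with means of 8.84 to 12.998 FPKM.

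**Figure D4:**
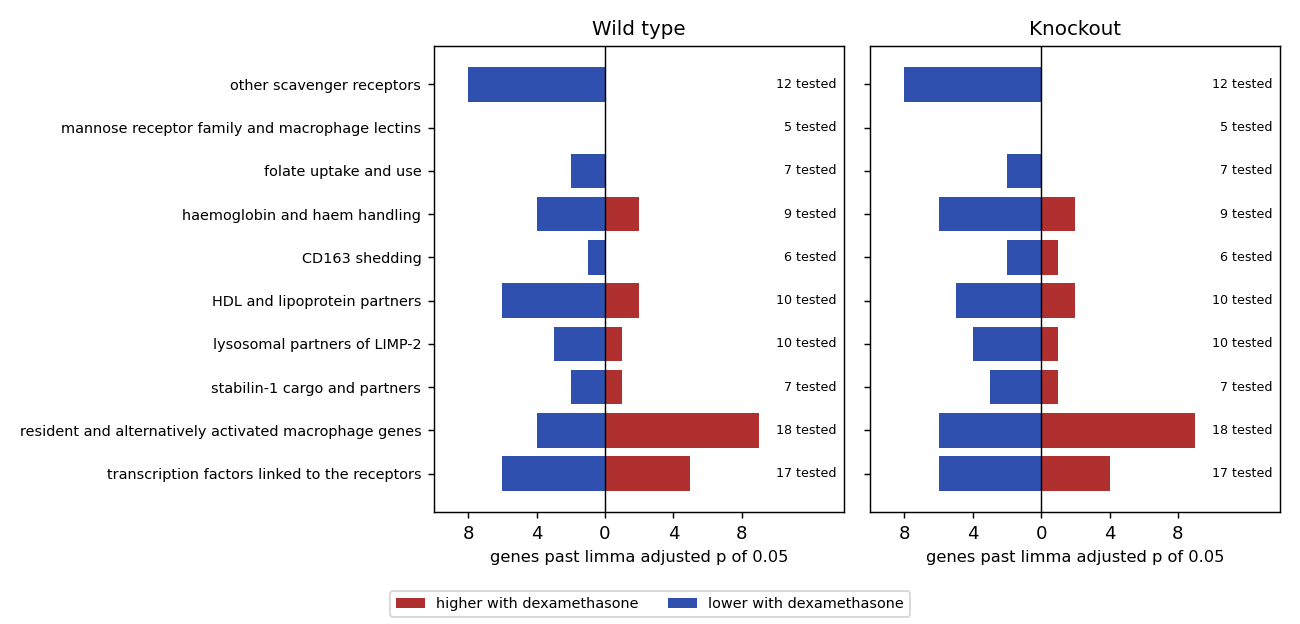
Number of genes past an adjusted p of 0.05 (limma) with dexamethasone in 10 related gene lists, in wild type (left) and knockout (right); red bars to the right count genes that rose, blue bars to the left genes that fell, and the number tested stands at the edge. Other scavenger receptors have 8 lower and 0 higher in both panels, and resident macrophage genes 9 higher.

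The profiles of the 9 genes over the 16 libraries differed in which genes they resembled. By Pearson's r of log2(FPKM + 1), which reads treatment, genotype and stromal signal together, the tested genes most like Cd163 were Fam13a (0.992), Rnf169 (0.986) and Rnase4 (0.984). Among the genes close to Mrc1 were Jade1 (0.949) and Pik3r1 (0.930), and Stab1 was most like Lmbr1l (0.964) and Dcaf1 (0.953). Marco resembled Fgf11 (0.958) and Arhgdib (0.955), and Msr1 resembled Brox (0.973) and Rnf128 (0.970). The nearest genes to Scarb1 were Dhcr7 (0.976), an enzyme of cholesterol synthesis, and Pip4k2c (0.968), and the nearest to Scarb2 was Prkd2 (0.957). For Folr2 they were Dok2 (0.985) and Rgs10 (0.978), and for Cd5l the interferon-induced Ifit3 (0.944) and the proteasome assembly gene Pomp (0.944). No member was among the 3 genes most like another member.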

How the data were processed

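FPKM values of 54532 Ensembl identifiers, made by the authors, were deposited as a separate table for each library. The submitters' processing notes name DESeq2, HTSeq 0.6.1, TopHat2 2.0.12 and Bowtie2 2.2.3 and the builds mm10 and GRCm38, with no strand setting or annotation version. Names came from GENCODE M21 (GRCm38), which held 54495 of the identifiers, and promoters from RefSeq (GRCm38.p6). Of the positive values 96.55% gave whole reads within 0.05 reads, which served as an alternative.

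Values were tested as log2(FPKM + 1) for 11654 genes that reached 1 FPKM in 4 or more of the 16 libraries, using limma 3.58.1 in R 4.3.3 (4 group means, variance trend). Two-sided p-values were adjusted per comparison (5 in all) by Benjamini-Hochberg and called under 0.05. The script was tested on simulated data. Tables and figures were made in Python 3.11.15 with pandas 2.3.3, numpy 2.4.6 and matplotlib 3.10.9. Genes named from the lists were up to 3 per list and comparison with the largest called difference; Blvra, Apoe, Trem2, Nr3c1 and Maf fell outside that rule and were chosen after their values were seen. The members and lists were chosen with earlier results of these data known. The split at 50 FPKM of Col1a1 was chosen after seeing the data. Some genes of the lists are not reported here by name.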

Additional observations from a re-analysis of the deposited data

Results flagged for a closer look

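In 4 of 36 groups of 4 libraries (9 genes in 4 groups), 1 library stood apart from the other 3 by Dixon's test; chance alone flags about 1 in 20 groups. In wild type with vehicle, Msr1 reached 73.2 FPKM in replicate 3 beside 25.9 to 28.4 in the others. Stab1 reached 188 FPKM in replicate 2 of the same group beside 170 to 173. In wild type with dexamethasone, replicate 4 held 15.7 FPKM of Marco beside 3.38 to 4.92, and 16.3 FPKM of Folr2 beside 5.30 to 7.00. The libraries behind the Msr1, Marco and Folr2 values are the ones poor in Col1a1 in their groups, with 6.77 and 19.1 FPKM; the part of the stromal signal in these values was not tested.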

How the results depend on the processing

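Of the 18 called differences, 9 passed under all alternatives run: dexamethasone on Cd163, Stab1, Folr2 and Cd5l in both genotypes and on Mrc1 in knockout. No called difference reversed its sign. A pseudocount of 0.1 FPKM, a filter on the mean FPKM and median-ratio scaling moved no count of calls by over 1.5 times. Correlations of same-numbered deviations from the group means ran from -0.76 to 0.73. Both extremes involve libraries apart in Col1a1, so these values cannot tell whether replicate numbers pair the libraries. With the replicate block, 1 gene in place of 15 passed for the interaction. With knockout against wild type in vehicle, 1 member passed, but 0 passed with no filter on low values, with the stromal marker score as a covariate or in libraries with Col1a1 under 50 FPKM, 2 passed with only the groups compared in the fit or with limma voom, and 8 with the 3 libraries left out. All genes called there numbered 545, against 244 with only the groups compared, 3958 with the 3 libraries left out, 60 in the Col1a1-poor and 202 in the Col1a1-rich libraries. Under dexamethasone, genotype calls of members went from 4 to 1 with the covariate, 7 with the 3 libraries left out and 1 in the poor libraries, and of all genes from 3114 to 990, 5158 and 390. For the interaction, 2 members passed with the 3 libraries left out, Cd163 (0.69, adjusted p = 0.0160) and Folr2 (0.85, adjusted p = 0.0435), and the 15 genes became 6 with no filter, 121 with the covariate, 725 with the 3 libraries left out, 4 with limma voom and 1 in the poor libraries. In those poor libraries 2155 genes rather than 3508 passed for dexamethasone in wild type; fewer libraries enter that fit. When 1 library was left out, member calls ranged from 5 to 7 and from 5 to 8 for dexamethasone in wild type and knockout, 0 to 4 and 2 to 5 for genotype with vehicle and dexamethasone, and 0 to 1 for the interaction. All genes called ranged from 2898 to 3656, 3761 to 4835, 278 to 1623, 1517 to 4070 and 2 to 330 in that order. For the other moves the cause was not tested. The Col1a1-rich libraries include no treated knockout library, and a fit with only the 2 groups compared gives no interaction. Reads in a library were as few as 126 for Cd163, 107 for Marco and 160 for Folr2, and the part of depth in their spread was not tested.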
